A study of Mus musculus with 3 samples.

Results

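Complement is a protein cascade of innate immunity that tags surfaces with fragments of C3 and C4 and can end in a pore, the membrane attack complex. It starts from the C1 complex on bound antibody (the classical pathway), from lectins that bind sugars (the lectin pathway) or from slow turnover of C3 itself (the alternative pathway). Most circulating components are made by the liver, and C1q comes mainly from macrophages. The glomerular capillary wall is a known site of complement injury, and cells there carry regulators on their membranes that stop the cascade.

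The genes described are 34 complement components, receptors and regulators, taken by gene symbol from the platform annotation and not by their values. Of these, 28 had a probe set annotated to that gene alone, with 54 probe sets between them, out of 18194 genes and 45101 probe sets in all. The other 6 (C1rl, C3, C4b, C7, Cd59b and Cfd) had no such probe set in the annotation used and were not analysed here. Glomeruli were isolated from 3 male mice of the inbred strain FVB/NJ, all nondiabetic and 8 weeks old, and each mouse (named mouse 1, mouse 2 or mouse 3 after the titles) gave 1 Affymetrix array. All 3 belong to the same group, the control arm of a series on diabetic OVE26 mice. The data therefore give levels in glomerular isolates of control mice and the spread between mice, and no comparison between groups was made.

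Values are log2 GCRMA expression values, and the probe set with the highest mean stands for a gene. Probe sets differ in affinity, so a level is not set against that of another gene. A gene counted as above background on an array when it exceeded the 95th percentile of 80 olfactory and vomeronasal receptor probe sets, a threshold of 2.58, 2.91 and 2.86 for mice 1, 2 and 3. All 8 podocyte genes, all 12 glomerular endothelial genes and all 8 mesangial and pericyte genes that could be measured exceeded the threshold on every array, so the markers of the labelled tissue were present. So did 12 of 13 proximal tubule genes and 7 of 10 loop and distal tubule genes, so markers of tubules were present as well. The distal tubule gene Umod was at 12.47, 13.56 and 13.06 in mice 1, 2 and 3. The 3 isolates also differed from one another. As the median difference from the mean of the other mice, proximal tubule genes were at 2.54 in mouse 3 and −1.90 in mouse 1, interferon response genes at 1.96 in mouse 3, and macrophage genes at 1.02 in mouse 1. On the same measure neutrophil and lymphocyte genes were at 1.57 in mouse 1 and −1.19 in mouse 3. Loop and distal tubule genes were at 0.81 in mouse 2 and −0.84 in mouse 1.

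In these glomerular isolates 9 of the 28 measured complement genes (32.1%) were above background in all mice, against 58.3% of all 18194 genes. A further 2 were above it in some mice and 17 in none. Of the 8 measured regulators 5 were above background in all mice (62.5%), a share near that of all genes. The 9 were the membrane regulators Cd55, Cd59a and Cr1l, the soluble regulators Serping1 and Clu, the receptor-like gene Cd93, the protease gene C1ra, and the alternative pathway genes Cfb and Cfp. None of the 4 lectin pathway genes and none of the 5 measured terminal pathway genes was above background in all mice. In whole glomeruli, fewer cells of a type and less RNA per cell cannot be told apart. The isolates also held tubule and leukocyte transcripts, and which cells gave the complement signals was not tested.

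**Figure D1:**
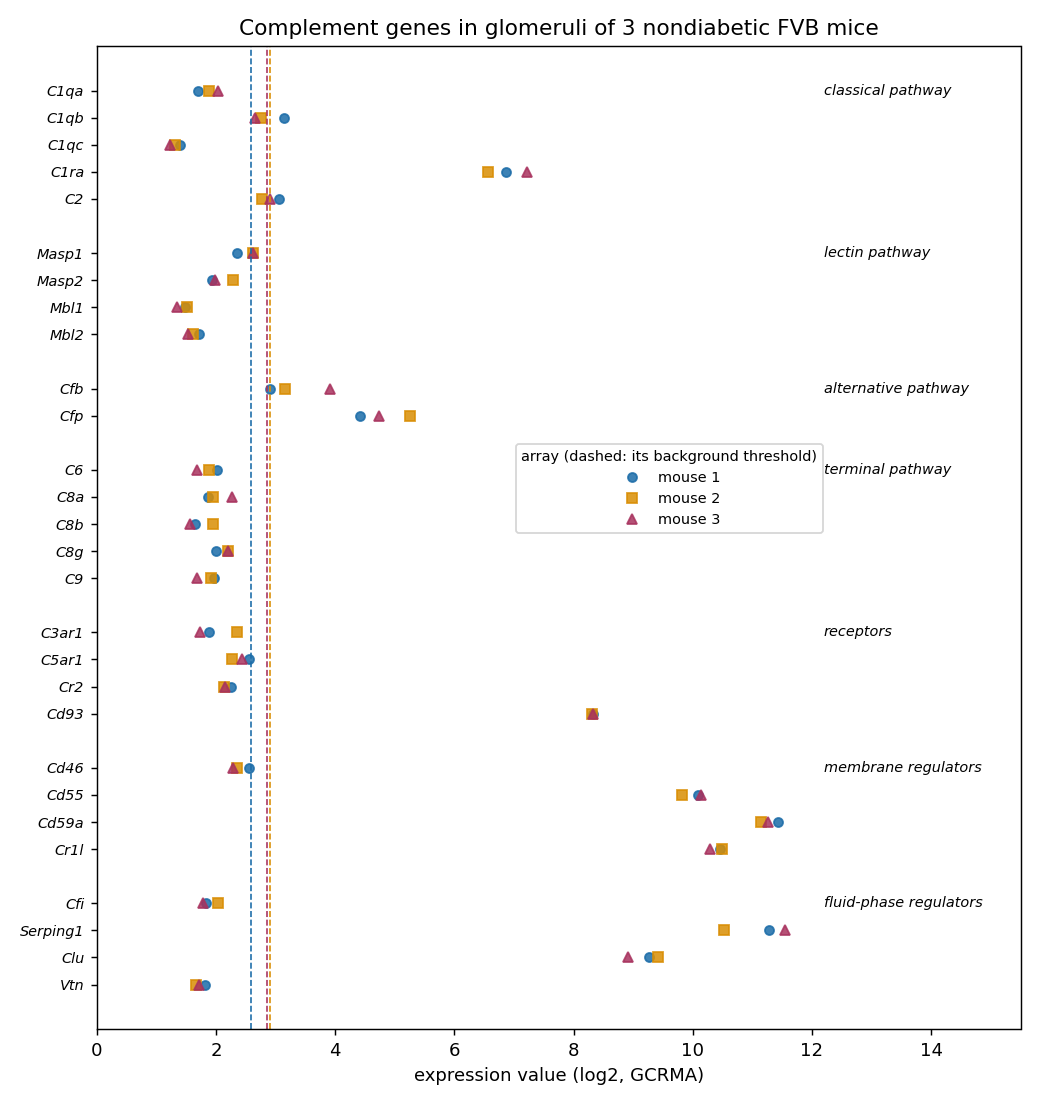
Expression of the 28 measured complement genes, grouped by role (rows), on the log2 GCRMA scale (horizontal axis), with 1 point per mouse and a dashed line at the background threshold of each array. For 9 genes all 3 points lie to the right of the lines, and every lectin and terminal pathway point lies left of the line of its own array.

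Among membrane regulators, Cd55, Cd59a and Cr1l were expressed above background in every mouse, and Cd46 was not. Cd55 encodes decay-accelerating factor, which takes apart the enzymes that cleave C3. It was at 10.09, 9.82 and 10.14 in mice 1, 2 and 3 (10.02 ± 0.17, SD, n = 3). Cd59a encodes the inhibitor that blocks the last step of pore assembly, and it was at 11.43, 11.14 and 11.26 (11.28 ± 0.14). Cr1l encodes Crry, a rodent inhibitor of C3 cleavage that is active on most mouse cells, and it was at 10.46, 10.49 and 10.29 (10.42 ± 0.11). On the probe sets that stand for these 3 genes the mice lay within 1.25-fold of one another, and a different mouse was highest for each. Cd46, whose product is a cofactor for cleavage of C3b and which in mice is known mainly from sperm, was at 2.56, 2.36 and 2.29 and below background on all arrays. In the GRCm38.p6 annotation Cd46, Cr1l and Cr2 follow one another on chromosome 1 with 0 protein-coding genes between them, and only Cr1l of these neighbours was above background.

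More than 1 probe set read each of these regulators. Both probe sets of Cd59a were highest in mouse 1 and lowest in mouse 2, and the further one was at 11.33, 10.51 and 10.63, a wider spread (SD 0.441) than that of the probe set above (SD 0.142). The 3 probe sets of Cd55 did not give the same order, since the further 2 (8.38, 8.13 and 8.09, and 8.55, 8.00 and 8.01 in mice 1, 2 and 3) were highest in mouse 1. The further probe sets of Cr1l were dim, at 4.11, 4.44 and 4.11 and at 3.02, 3.15 and 3.33. Mouse 1 was above mouse 2 on all 3 probe sets of Cd55 and below it on all 3 of Cr1l, while the place of mouse 3 changed with the probe set.

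**Figure D2:**
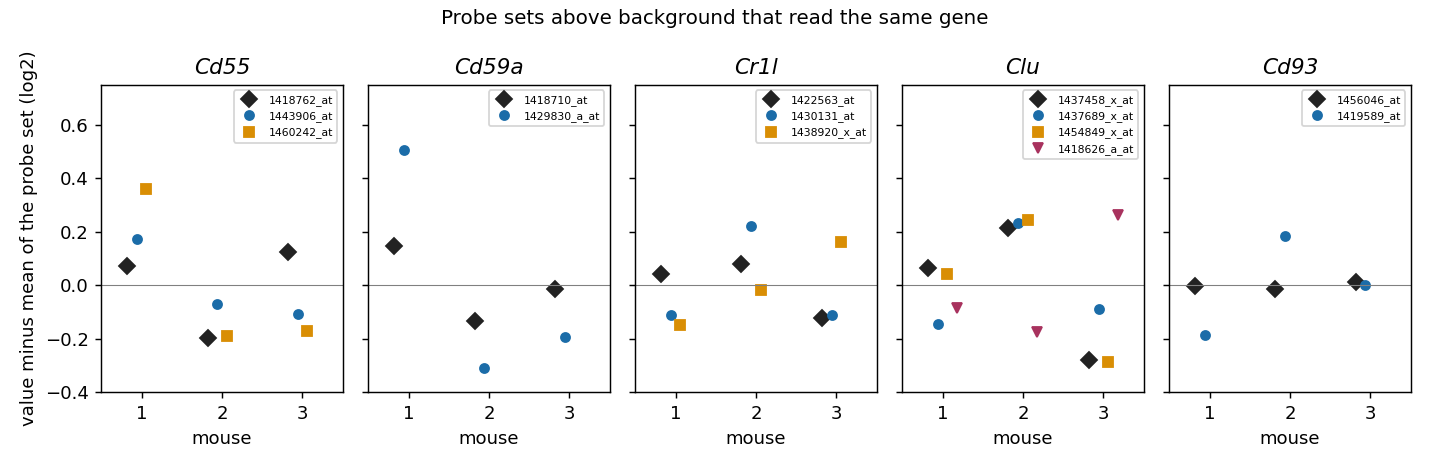
Value of each mouse minus the mean of the probe set (vertical axis, log2), by mouse (horizontal axis), for the 5 genes with more than 1 probe set above background on all arrays. Each symbol is 1 probe set and the black diamond is the one that stands for the gene. Mouse 1 is highest for both Cd59a probe sets, and for Clu 3 probe sets are highest in mouse 2 and the fourth in mouse 3.

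The start regions of Cd55 and Cd59a are shown because their windows in the RefSeq promoter table hold a match to a searched motif, which that of Cr1l does not. Each sequence is the 250 bases before the annotated transcription start, from RefSeq on GRCm38.p6, written along the gene. Cd55 lies at chr1:130462745-130462994 on the minus strand, and capitals mark matches to the GC box (GGGCGG, here on the opposite strand), which begin 77 and 7 bases before the start. Cd59a lies at chr2:104095551-104095800 on the plus strand, and capitals mark a match to a shortened interferon-stimulated response element (GAAANNGAA), which begins 187 bases before the start. Among all 32851 promoter windows of this length 32.7% held the GC box and 7.13% held the response element on either strand.
Cd55: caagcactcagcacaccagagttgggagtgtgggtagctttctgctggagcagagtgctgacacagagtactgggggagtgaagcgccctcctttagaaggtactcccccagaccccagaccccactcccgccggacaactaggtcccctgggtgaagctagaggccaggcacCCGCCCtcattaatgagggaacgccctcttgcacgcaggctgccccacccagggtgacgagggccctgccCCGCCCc
Cd59a: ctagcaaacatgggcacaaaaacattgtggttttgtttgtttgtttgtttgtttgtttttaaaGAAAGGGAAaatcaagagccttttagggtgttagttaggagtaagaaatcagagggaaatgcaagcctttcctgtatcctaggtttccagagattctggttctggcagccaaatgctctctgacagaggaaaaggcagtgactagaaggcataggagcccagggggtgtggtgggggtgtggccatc

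Of the soluble regulators Serping1 and Clu were expressed, and Cfi and Vtn were below background on all arrays. Serping1 encodes C1 inhibitor, which inactivates the C1r and C1s proteases and the lectin pathway proteases. It was at 11.28, 10.52 and 11.55 in mice 1, 2 and 3 (11.11 ± 0.53), so mouse 2 was low and mice 1 and 3 were close. The highest and lowest mice differed 2.04-fold. Clu encodes clusterin, a chaperone that binds terminal complexes in fluid, and it was at 9.26, 9.41 and 8.92 (9.20 ± 0.25). Its 4 probe sets disagreed on the order: 3 were highest in mouse 2, and the fourth, at 6.05, 5.96 and 6.40, was highest in mouse 3 and lowest in mouse 2. Cfi encodes the protease factor I, which cleaves C3b and C4b, and was at 1.84, 2.04 and 1.78. Vtn encodes vitronectin, an inhibitor of pore insertion, and was at 1.81, 1.67 and 1.71.

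In the classical pathway C1ra was above background in all mice, whereas of the C1q genes C1qb was above it in mouse 1 alone and C1qa and C1qc in none. C1ra encodes the protease C1r, which activates C1s within the C1 complex, and was at 6.87, 6.57 and 7.22 in mice 1, 2 and 3 (6.89 ± 0.33). A further probe set annotated to both C1rb and C1ra gave 7.77, 7.55 and 8.22, the same order of the mice. The partner protease gene C1s1 was at 9.84, 9.71 and 9.54 and ran in another order. C2, which encodes the serine protease of the classical and lectin C3 convertase, was above background in mice 1 and 3 only (3.06, 2.77 and 2.90). In mouse 3 it was close to the threshold of 2.86. A further C2 probe set was below background on all arrays (1.84, 2.32 and 2.17). Another passed the threshold in mouse 1 alone (2.63, 2.57 and 2.77). A probe set shared by C4a and C4b was at 1.87, 2.17 and 2.29, below background on all arrays.

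C1qa, C1qb and C1qc encode the 3 chains of C1q, and in the annotation they follow one another on chromosome 4. C1qa was at 1.71, 1.88 and 2.04 and C1qc at 1.39, 1.31 and 1.23, both below background in all mice. C1qb exceeded the threshold in mouse 1 alone (3.14, 2.76 and 2.65), and its other 2 probe sets were below background on all arrays. Macrophage genes were measured in the same RNA. Of 15 such genes 9 were above background in all mice, 4 in some and 2 (Cd68 and Ms4a7) in none. Among the 9, 7 were highest in mouse 1 and 2 in mouse 2, against 35.1% and 28.6% of all genes above background. The lysozyme gene Lyz2 was at 9.47, 8.22 and 7.02 and the adaptor gene Tyrobp at 6.78, 4.79 and 3.36 in mice 1, 2 and 3. Of 4 neutrophil and lymphocyte genes above background 3 were also highest in mouse 1, and which leukocytes gave these signals was not tested. C1qb ran in the order of Lyz2 and Tyrobp, highest in mouse 1 and lowest in mouse 3, with its values in mice 2 and 3 under the threshold. Whether C1qa and C1qc followed that order cannot be read, since every value of theirs lay under the threshold.

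The sequence before the C1ra start is shown because C1ra was lowest in mouse 2 and highest in mouse 3, as interferon response genes were. The 250 bases lie at chr6:124512371-124512620 on the plus strand of GRCm38.p6 (RefSeq). Neither the shortened interferon-stimulated response element nor the gamma-activated site TTCNNNGAA, which 7.02% of all windows held, was found on either strand in this window, so no base is in capitals. That says only that these letters are not in these bases.
C1ra: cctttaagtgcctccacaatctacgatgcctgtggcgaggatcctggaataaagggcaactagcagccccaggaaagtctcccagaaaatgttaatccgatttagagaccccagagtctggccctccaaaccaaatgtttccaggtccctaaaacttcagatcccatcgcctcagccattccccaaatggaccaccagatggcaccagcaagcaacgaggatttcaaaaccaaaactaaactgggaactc

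Both measured genes of the alternative pathway were above background in all mice, at low signal. Cfb encodes factor B, the protease of the alternative C3 convertase, and was at 2.90, 3.16 and 3.91 in mice 1, 2 and 3 (3.33 ± 0.52). Its smallest margin over the threshold of an array was 0.25, so its range of 2.01-fold rests on values close to background. Cfb lies next to C2 on chromosome 17 in the annotation. Cfp encodes properdin, which stabilises that convertase and is made mainly by leukocytes, and was at 4.42, 5.25 and 4.73 (4.80 ± 0.42). Its other probe set was below background on all arrays, at 2.33, 2.30 and 2.33, so the signal for Cfp comes from 1 of 2 probe sets. In mouse 2, where Cfp was highest, 2 of 9 macrophage genes above background and 1 of 4 neutrophil and lymphocyte genes were highest too. Of the loop and distal tubule genes above background, 6 of 7 were highest in that mouse, against 28.6% of all genes above background. Which cells gave the Cfp signal was not tested.

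Lectin and terminal pathway transcripts were not detectable over the background of these arrays. The lectin genes Mbl1 and Mbl2 (mannose-binding lectins) and Masp1 and Masp2 (their proteases) had means from 1.45 to 2.53. In the terminal pathway the pore protein genes C6, C8a, C8b, C8g and C9 had means from 1.72 to 2.14. Hc, which encodes C5 and carries a loss-of-function allele in the FVB/NJ strain, was below background as well (2.19, 1.98 and 2.05). Of 7 hepatocyte genes 6 were below background on all arrays, and the albumin gene Alb was just above it (2.59, 2.96 and 3.08). On the probe sets that stand for the genes, the highest value among these 9 lectin and terminal genes was 2.62, for Masp1 in mice 2 and 3, whose values were identical. A further Masp1 probe set passed the threshold of mouse 1 by a small margin (2.59 against 2.58).

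Of the 4 receptor genes Cd93 alone was above background. Cd93 encodes a C-type lectin-like membrane protein of endothelial and myeloid cells that was first described as a C1q receptor. It was at 8.32, 8.31 and 8.33 in mice 1, 2 and 3 (8.32 ± 0.014), so the mice were nearly identical on this probe set. Its next probe set was at 7.98, 8.35 and 8.16 (SD 0.186), and its other 3 were near or below the threshold. The anaphylatoxin receptor genes C3ar1 (1.89, 2.35 and 1.73) and C5ar1 (2.55, 2.27 and 2.43) and the B cell receptor gene Cr2 (2.25, 2.14 and 2.15) were below background on all arrays. All 3 probe sets of C3ar1 and both of C5ar1 were below it.

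Further genes related to complement were taken from a fixed list. Of 21 such genes with a probe set under the listed symbol, 5 were above background in all mice, 1 in some and 15 in none. Over all genes, 58.3% were above background in all mice. The listed gene C1s, annotated as C1s1 and above background in all mice, is outside this count. The scavenger collectin Colec12 (8.94, 8.88 and 9.06), the C1q-binding protein genes C1qbp (10.24, 10.57 and 10.50) and Calr (13.25, 12.98 and 13.04), and Calr3 (4.67, 4.53 and 3.67) were among the 5. The fifth was Itgb2, the shared chain of the leukocyte receptors for cleaved C3, which was highest in mouse 1 (5.39, 4.23 and 3.62). In that mouse 7 of 9 macrophage genes and 3 of 4 neutrophil and lymphocyte genes above background were highest too. The share of all genes above background that were highest there was 35.1%. Itgam and Itgax, the partner chains of Itgb2, were below background on all arrays.

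The next question was whether complement genes varied between mice more than other genes of their level. Among the 9 members above background, Serping1 and Cfb had a range of at least 2-fold, against 5.94% of all 10610 genes above background. Both lay just past that limit, at 1.03 and 1.01 on the log2 scale. Without mouse 2 the range of Serping1 was 0.27, without mouse 3 it was 0.76, and without mouse 3 that of Cfb was 0.26. The median SD of the 9 members was 0.254, against 0.157 over all genes above background, and without mouse 2, when 10 members passed the background filter, these medians were 0.154 and 0.135.

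Each gene's variance was set against the variance limma fitted for genes of its level. By this test 0 of 10610 genes, and so 0 of the 9 members, passed an adjusted p of 0.05 (0% of genes), and 493 genes (4.65%) had an unadjusted p under 0.05. Serping1 was the member among them, with an unadjusted limma p of 0.0135. That p was 0.211 without mouse 2 and 0.066 with no trend on mean level, both over 0.05, and with the mean over probe sets Cfb came under 0.05 as well (0.0414). The variance of Serping1 was 23.2 times the typical variance at its level (SD 0.533, against a typical 0.111). The limma adjusted p of Serping1 was 0.820, and it ranged from 0.678 to 0.956 under the alternative settings. The variances of the other 8 members were between 0.00769 times (Cd93) and 5.93 times (Cfb) the typical value. With 3 mice, a spread as wide as that of Serping1 did not pass the adjusted threshold.

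**Figure D3:**
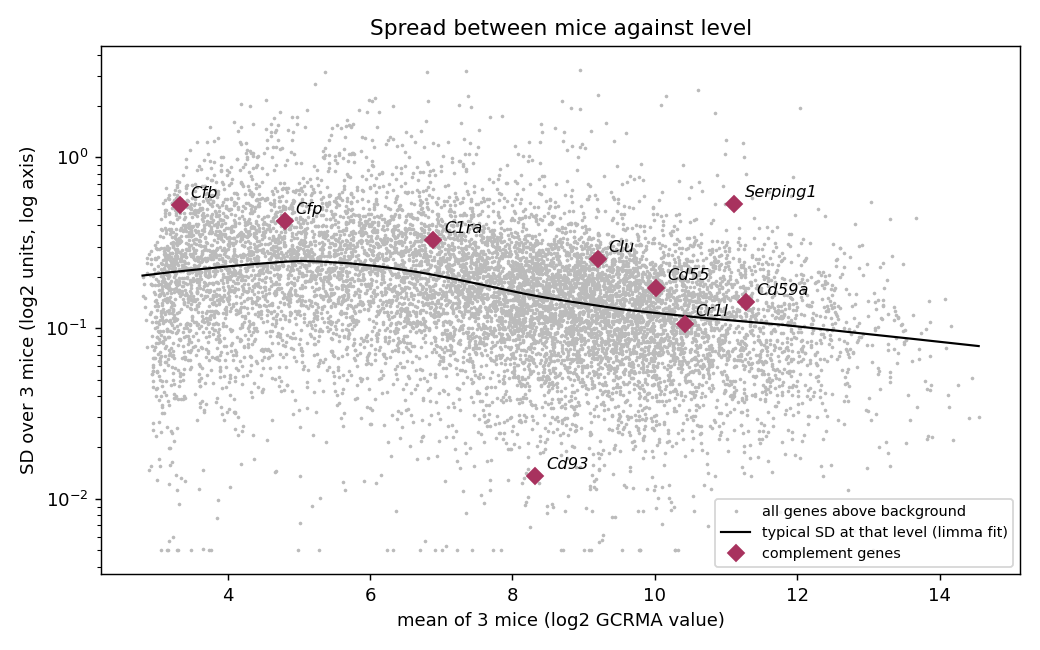
SD over 3 mice (vertical axis, log2 units on a log axis) against mean level (horizontal axis, log2 GCRMA value) for 10610 genes above background (grey), with the typical SD fitted by limma (line) and the 9 complement genes (diamonds). Serping1 lies furthest above the line of the 9 and Cd93 furthest below it, and SDs under 0.005 are drawn at 0.005.

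The order of the mice was similar for some complement genes. Serping1, C1ra, Cd55 and Cd93 were lowest in mouse 2 and highest in mouse 3, an order that 18.0% of genes above background showed, and this order was chosen after the values were seen. For Cd93 the mice differed by 0.03 and for Cd55 its further probe sets ran otherwise, so the order rests mainly on Serping1 and C1ra, each named by 1 probe set. Against the mean of the remaining mice, Serping1 differed by 0.65 in mouse 3 and −0.89 in mouse 2, and C1ra by 0.50 in mouse 3 and −0.48 in mouse 2. Cfb also was highest in mouse 3, by 0.88, but was lowest in mouse 1. The remaining members ran otherwise. Cr1l and Clu were lowest in mouse 3 and highest in mouse 2, with Clu at −0.42 in mouse 3. Cfp was lowest in mouse 1 and highest in mouse 2, and Cd59a was lowest in mouse 2 and highest in mouse 1.

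Several gene lists moved in the same mice. All 13 interferon response genes above background were highest in mouse 3, and 12 of the 13 were lowest in mouse 2, as Serping1 and C1ra were, with medians of 1.96 in mouse 3 and −1.82 in mouse 2. The widest ranges of that list were those of the GTPase genes Igtp (8.24, 7.50 and 11.86) and Gbp2 (9.26, 8.45 and 12.78) and the peptide transporter gene Tap1 (5.60, 4.13 and 8.34). All 12 proximal tubule genes above background were also highest in mouse 3, and 10 of the 12 were lowest in mouse 1, the order of Cfb. Of the 7 loop and distal tubule genes above background 6 were highest in mouse 2 and 6 lowest in mouse 1, as Cfp was. Over all genes above background, 17.7% ran in the order of Cfb and 13.9% in that of Cfp. Those 2 orders too were compared after the values were seen, and each rests on 1 complement gene. Of all genes above background 36.3% were highest in mouse 3 and 28.6% in mouse 2. The part of interferon response, tubule content or leukocyte content in the complement values was not tested, and with 1 array per mouse they cannot be told apart. Podocyte genes had medians of 0.04, 0.05 and −0.08 in mice 1, 2 and 3.

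**Figure D4:**
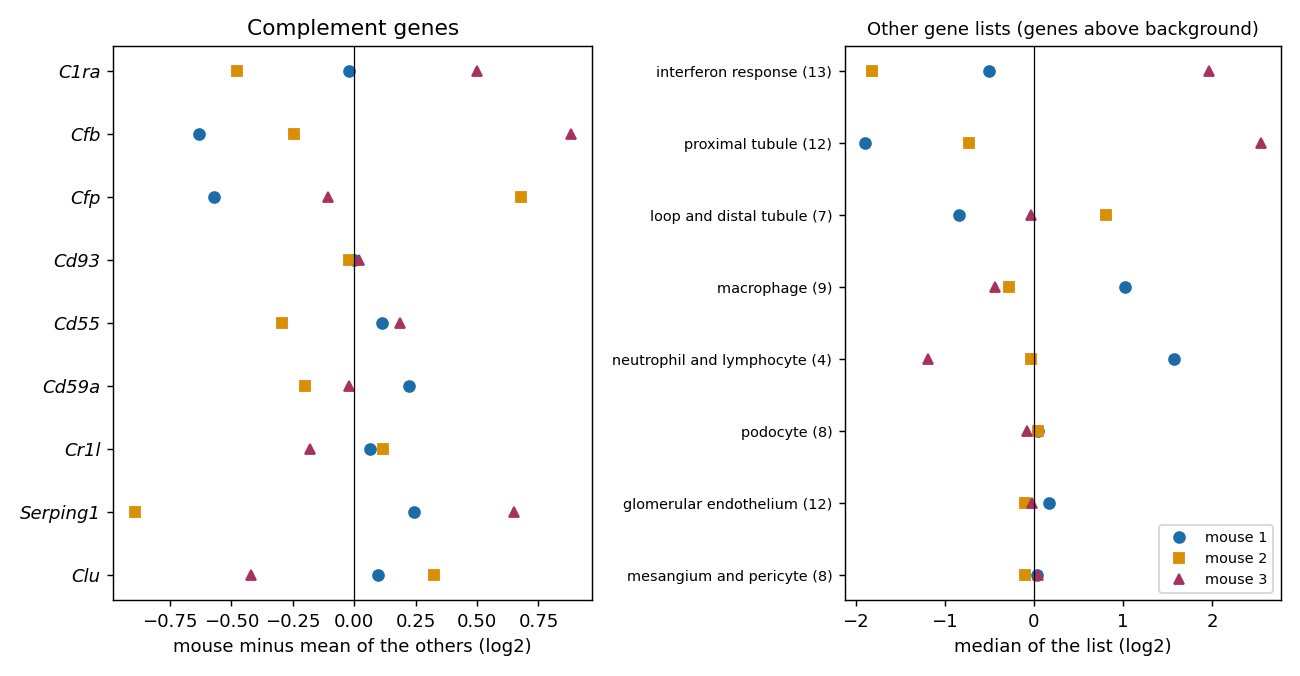
Each mouse minus the mean of the other mice (horizontal axes, log2), for the 9 complement genes (left) and as the median of other gene lists with the number of genes above background in brackets (right). Mouse 3 is highest and mouse 2 lowest for C1ra, Serping1 and the interferon response list, and the scales of the 2 panels differ.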

How the data were processed

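Per the labels' protocols, RNA of isolated glomeruli was amplified and labelled with biotin in a protocol that primes at the 3′ end of transcripts. The deposited log2 values were summarised with GCRMA, per the submitters' processing notes. That the scale is log2 follows from the range (0.67 to 14.76), and the version, the genome build and the arrays normalised together are not given in the sources used here. No further normalisation was applied, and 0 per-sample columns were left unused. Of 45101 probe sets, 34958 had 1 gene symbol in the platform annotation, 932 had several and 9211 had none there. All 28 measured members matched the RefSeq gene table (GRCm38.p6) by gene identifier. Array number and signal over background limit precision.

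The spread test used limma 3.58.1 (fitFDistRobustly with a trend on mean level, upper tail, Benjamini-Hochberg adjustment over all genes above background) in R 4.3.3. On simulated data only very large excesses of spread passed after adjustment, so a count of 0 says little about moderate ones. Python 3.11.15 computed counts, differences between mice and motif matches in the 250 bases before transcription starts, with both strands searched for the gamma-activated site, the shortened interferon-stimulated response element, the TATA box (TATAAA), the GC box and a PU.1 site (GAGGAAGT). P-values compare a gene's spread between these 3 mice with that of genes at its level, and this spread may be partly technical. Every member is named, and from other lists at most the 3 genes with the widest range, plus genes a result turns on. The members, lists, tests and motifs were chosen with earlier results of these data known. The alternatives changed the probe set rule, the normalisation, the background threshold, the filter, the variance fit and the mice included.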

Additional observations from a re-analysis of the deposited data

How the results depend on the processing

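The number of members above background in all mice was between 8 and 10 under the alternatives that changed the probe set rule, the normalisation, the threshold or the mice included, and 8 with the 99th percentile as threshold, where Cfb dropped out. No member passed the adjusted threshold for spread under any of the 11 alternatives, where the lowest adjusted p was 0.678 for Serping1. The count of 2 members with a 2-fold range was not stable. It was 1 after quantile normalisation, 0 with each array centred on its median, 1 with the 99th percentile as threshold, and 0 to 1 when a mouse was left out. The ranges of Serping1 and Cfb lie so near the limit of 1 on the log2 scale that small shifts move them across it: centring gave 0.97 and 0.9995. The median SD of the members was 0.149 with no filter on dim genes, where all 28 entered, and ranged from 0.154 to 0.350 when a mouse was left out. Over all genes, 319 to 370 had a 2-fold range when a mouse was left out, against 630 with all mice, and 302 to 373 had an unadjusted p under 0.05, against 493. No paired analysis was possible because the labels give 1 group.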

Other observations

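The RefSeq promoter table held 5 of the 9 members above background (C1ra, Cd55, Cd59a, Cfp and Cr1l) and 15 of the 19 measured members that were not above it in all mice. In the 250 bases before the start, the median GC content was 46.8% for the 5 windows of expressed members, 51.6% for the 16 windows of the others and 52.4% over all 32851 windows. The ranges of both sets overlapped, from 41.6% to 64.0% and from 38.8% to 59.2%. Cfp and Cr1l held none of the 5 motifs searched. The 16 windows include 2 starts of C8g.

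Acute phase and NF-kB genes exceeded the threshold on all arrays for 6 of 10 members and on none for 4, and the median of the 6 differed from the other mice by 0.27 in mouse 1, −0.19 in mouse 2 and 0.25 in mouse 3. A probe set shared by Cd55b and Cd55 was near the threshold, at 3.15, 2.49 and 2.90 in mice 1, 2 and 3.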
